A study of Kluyveromyces lactis with 8 samples.

Results

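The sir2∆ strain of the milk yeast Kluyveromyces lactis was compared with its wild type, using 4 of the 8 libraries of a series that also holds sir4∆ and sum1∆ strains. The wild-type libraries (WT, strain LRY2835, MATa SIR2 hmr∆ hml∆) and the sir2∆ libraries (strain LRY2850, MATa sir2∆ hmr∆ hml∆) were taken by their titles, 2 of each. The sir4∆ libraries (strain LRY3096) and the sum1∆ libraries (strain LRY3098), also 2 of each, are MATa hmr∆ hml∆ as well and serve here only for comparison. All strains therefore lack both silent mating cassettes, and each genotype is represented by a single strain. Cultures in the rich glucose medium YPD were started at an OD of 0.3, shaken at 30 °C and collected in early log phase at an OD of 1. RNA was prepared with hot phenol, treated with DNase and sequenced as 50-base single reads from libraries that do not keep the strand. The series design describes the 2 libraries of a group as technical replicates, so the p-values measure the spread between libraries and not between cultures. Transcript levels are given as FPKM, the fragment count scaled by gene length and by library size. Of 5076 genes listed, 5022 averaged 1 FPKM or more across the WT and sir2∆ libraries and were tested. The other 54 were not tested, and 49 of them were listed at 0 in all 4 libraries.

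Sir2 is a deacetylase that removes acetyl groups from histone tails and other proteins and consumes NAD in each reaction. In budding yeasts it is known for silencing the mating cassettes and chromosome ends, where it works with Sir4. In K. lactis it is also known to act with Sum1, a DNA-binding repressor of sporulation genes. Because the enzyme needs NAD, its activity is tied to nicotinic acid supply, and K. lactis lacks the pathway that makes NAD from tryptophan.

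Depth, estimated as reads on genes, lay between 10.1 and 21.7 M in the 4 libraries and between 10.6 and 26.3 M in the sir4∆ and sum1∆ libraries. KLLA0F14663g, which carries no symbol in the reference gene table, was the only gene present in the other 6 libraries (10 FPKM or more) and missing from both of sir2∆ (under 0.1 FPKM). It stood at 73.2 and 71.0 FPKM in WT and at 0.0513 and 0 FPKM in sir2∆. No entry carries the symbol SIR2, so the deletion was not checked by name. The mating type labels were checked with a-cell and alpha-cell genes. STE2, the alpha-factor receptor of a cells, was at 9.35 and 8.35 FPKM in WT and 10.1 and 9.43 FPKM in sir2∆. STE3, the a-factor receptor of alpha cells, was at 12.1 and 14.9 FPKM in WT and 12.3 and 11.0 FPKM in sir2∆. The receptors of both mating types were thus detected at similar low levels in a MATa strain. Of the other a-cell genes, AGA2, BAR1 and ASG7 were higher in sir2∆ than in WT, but STE6 averaged 8.85 FPKM in both. The alpha-cell genes SAG1 and AFB1 averaged 13.7 and 10.6 FPKM in WT and 13.3 and 12.3 FPKM in sir2∆. AGA2 was at 4.98 and 5.75 FPKM in WT and 218 and 262 FPKM in sir2∆. BAR1 was at 0.322 and 0.529 FPKM in WT and 16.9 and 17.6 FPKM in sir2∆. ASG7 was at 4.10 and 5.22 FPKM in WT and 11.6 and 11.5 FPKM in sir2∆. HMLALPHA1 and HMLALPHA2, the alpha genes of a silent cassette, were listed at 0 in all 8 libraries.

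The low end of the libraries differed between the genotypes. The 5th percentile of FPKM over all 5076 genes listed was 7.77 and 7.65 in WT and 11.7 and 11.6 in sir2∆. It was 7.14 and 7.32 in sir4∆ and 11.1 and 10.9 in sum1∆. Medians over all genes were closer, at 61.9 and 62.2 FPKM in WT and 64.0 and 63.9 FPKM in sir2∆. As a check, 3.93 FPKM, the gap between the group means, was subtracted from every gene in the sir2∆ libraries. This left 198 rises, all among the 246 described here, and gave 101 falls, which include all 36 described here. Since the subtraction only lowers sir2∆ values, this nesting follows largely from the procedure. It was not tested whether the gap itself comes from rises of weakly expressed genes, so its part in those rises was not measured. The subtraction also moved the median log2 fold change of all tested genes from -0.01 to -0.13. Those 101 falls are to be read against that shift.

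In sir2∆ far more transcripts rose past the fold threshold than fell, and the rises and falls lay at opposite ends of the expression range. A gene is called here at a Benjamini-Hochberg adjusted p below 0.05 in limma and a log2 fold change of at least 1 in size, on the log2(FPKM + 1) scale. By this rule 246 genes were higher in sir2∆ (4.9% of those tested) and 36 were lower (0.717%). In each of these 282 genes the WT and sir2∆ libraries did not overlap, which selection by this rule favours. The share of such genes among all tested genes was not counted. Rises had a median log2 fold change of 1.84, and 65 of them reached 3 or more. The median rise went from 7.9 FPKM in WT to 41.8 FPKM in sir2∆, against a WT median of 63.2 FPKM over all tested genes. Falls had a median of -1.33 and went from a median of 463 FPKM in WT to 206 FPKM in sir2∆.

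Among the 268 genes between 1 and 10 FPKM in WT, 119 rose (44.4%) and 1 fell. Among the 275 genes at 1000 FPKM or more, 1 rose and 9 fell (3.27%). A further 21 genes were below 1 FPKM in WT, and all 21 rose, but these passed the filter only through sir2∆ and so had to differ. Genes called higher made up 0.644% and 0.592% of the summed FPKM in the WT libraries and 2.11% in each sir2∆ library. Genes called lower made up 1.23% and 1.45% in WT and 0.582% and 0.546% in sir2∆. By the adjusted p alone, 1452 genes (28.9%) rose and 1465 (29.2%) fell, and only past the fold threshold did rises outnumber falls.

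**Figure D1:**
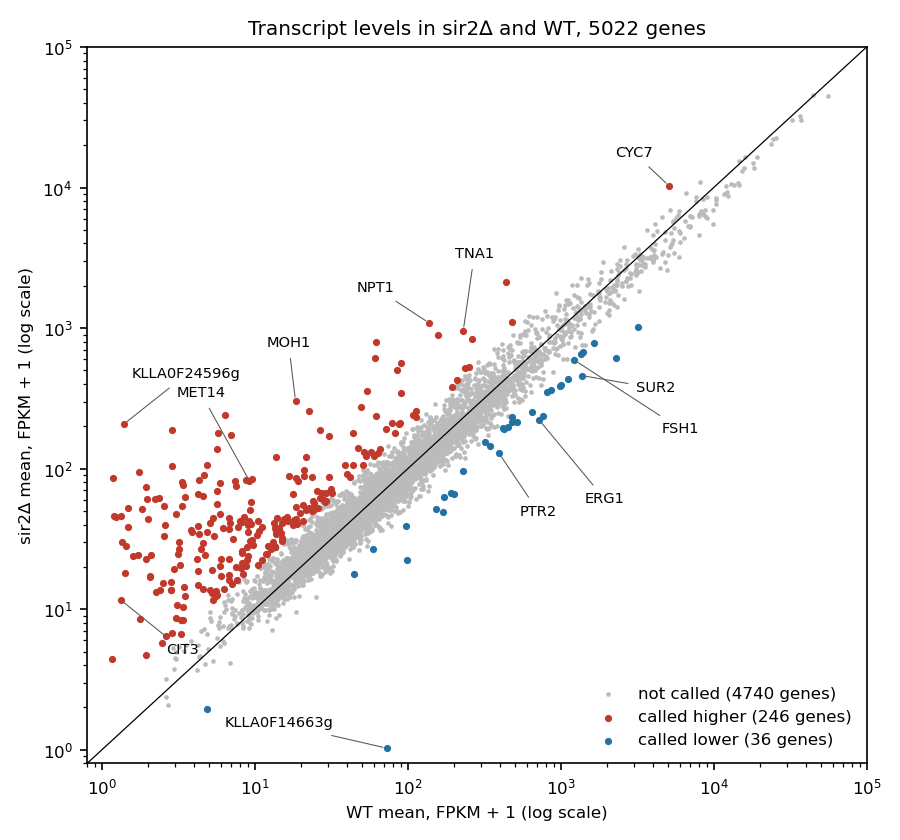
Mean FPKM + 1 of each of the 5022 tested genes in WT (horizontal, log scale) and in sir2∆ (vertical, log scale), with the line of equal levels. Red points are the 246 genes called higher, which lie mostly at the left among genes weakly expressed in WT, and blue points are the 36 called lower, which lie mostly above 100 FPKM.

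The 23 falls with a symbol included enzymes of sterol and sphingolipid synthesis. ERG1, the squalene epoxidase that makes the first oxygenated sterol precursor, was at 634 and 810 FPKM in WT and at 235 and 206 FPKM in sir2∆ (log2 fold change -1.70, SE 0.12, adjusted p = 1.93e-05). ERG11, the lanosterol demethylase that azole drugs inhibit, was at 873 and 1134 FPKM in WT and 417 and 370 FPKM in sir2∆ (-1.34, SE 0.12, adjusted p = 5.98e-05). ERG25, the oxidase that removes the methyl groups at carbon C-4 of the sterol ring, went from 1479 and 1827 FPKM to 814 and 759 FPKM (-1.06, SE 0.10, adjusted p = 8.47e-05). These were the called members among 27 tested genes of sterol synthesis (11.1%, against 0.717% of all tested genes called lower). Of the 27, 24 had a fold change below 0, and the median was -0.27 against -0.01 over all genes. Without the fold threshold 19 were lower and 1 was higher. ERG3, the sterol desaturase, and UPC2, a transcription factor of sterol genes, were at -0.86 and -0.88 and missed the fold threshold. SUT1, a regulator of sterol uptake, was at 0.72 and was the member that passed the adjusted p in the other direction.

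SUR2, the hydroxylase that turns sphinganine into phytosphingosine, fell from 1155 and 1603 FPKM to 497 and 419 FPKM (-1.57, SE 0.15, adjusted p = 8.07e-05). It was the called member among 18 genes of sphingolipid synthesis, whose median was -0.32. Another 11 of them were lower without the fold threshold, among them SCS7, the fatty acid hydroxylase of ceramides (-0.67), and LCB1 and LCB2, the subunits of serine palmitoyltransferase (-0.45 and -0.55). Genes of fatty acid and phospholipid synthesis had a similar median of -0.37 over 24 members, 15 of them lower and 3 higher without the fold threshold. OLE1, the fatty acid desaturase, was at -0.68, and FAS2, a fatty acid synthase subunit, was at -0.78. INO4, an activator of phospholipid genes in S. cerevisiae, was the called member and rose (1.69, from 10.1 and 8.58 FPKM to 37.4 and 27.7 FPKM).

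Other falls belonged to heme, nucleotide, redox and mitochondrial metabolism. HEM13, coproporphyrinogen oxidase of heme synthesis, was at 770 and 967 FPKM in WT and 403 and 325 FPKM in sir2∆ (-1.25, SE 0.13, adjusted p = 0.000117). URA1, the dihydroorotate dehydrogenase of pyrimidine synthesis, was at 537 and 752 FPKM in WT and 276 and 231 FPKM in sir2∆ (-1.33). FRD1, a soluble fumarate reductase, went from 411 and 548 FPKM to 239 and 192 FPKM (-1.15). LSC2, a subunit of the succinyl-CoA ligase of the TCA cycle, stood at 954 and 1018 FPKM in WT and 390 and 385 FPKM in sir2∆ (-1.34). Its partner subunit LSC1 was at -0.65, and 14 of 26 TCA cycle genes were lower without the fold threshold (median -0.25). POS5, the mitochondrial kinase that makes NADPH from NADH, fell from 295 and 347 FPKM to 155 and 150 FPKM (-1.06).

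Transport, iron and sugar genes supplied further falls. PTR2, the permease for di- and tripeptides, had closely spaced libraries, at 403 and 385 FPKM in WT and 131 and 123 FPKM in sir2∆ (-1.62, SE 0.06, adjusted p = 1.89e-07). It was the called member of 27 genes of amino acid and peptide uptake. ATO3, linked in S. cerevisiae to ammonium export, was at 1395 and 1318 FPKM in WT and 623 and 675 FPKM in sir2∆ (-1.06). ATX2, a Golgi membrane protein of manganese homeostasis, was at 191 and 265 FPKM in WT and 104 and 87.6 FPKM in sir2∆ (-1.23). FIT2, a cell wall mannoprotein that retains siderophore iron in S. cerevisiae, went from 449 and 446 FPKM to 186 and 210 FPKM (-1.18). FRA1, which restrains the iron regulon in S. cerevisiae, went from 453 and 502 FPKM to 253 and 211 FPKM (-1.04). The high-affinity iron uptake genes FET3 and FTR1 were at -0.72 and -0.42 and were not called, and the 24 iron and copper genes had a median of 0.05, or -0.02 with quantile normalization.

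GAL7, the uridylyltransferase of galactose use, was at 495 and 530 FPKM in WT and 238 and 190 FPKM in sir2∆ (-1.26, SE 0.10, adjusted p = 2.4e-05). All 6 tested genes of the lactose, galactose and sucrose list had a fold change below 0. The list holds no gene for the lactose permease or beta-galactosidase, so lactose use itself was not examined. SUC2 (invertase) was at -0.82, GAL10 (epimerase) at -0.61, GAL80 (the repressor) at -0.52, GAL1 (galactokinase) at -0.51 and GAL4 (the activator) at -0.12. Of these 5, all except GAL4 passed the adjusted p but not the fold threshold. The glycolysis list, which holds no hexose transporter, showed no called gene among 18. Of these, 12 were lower without the fold threshold, and the median was -0.43. By this measure 29.2% of all tested genes were lower. Genes at 1000 FPKM or more in WT had a median of -0.21, and the WT median of this list was 1060 FPKM. PFK1 and PFK2, the subunits of phosphofructokinase, were at -0.79 and -0.87, and the abundant PGK1 was at -0.50. The 50 stress and reserve genes had a median of 0.01, with 18 higher and 13 lower without the fold threshold. Their members ranged from SPG4 (-1.33) to MOH1 (4.04), with the trehalose synthesis genes TPS1 at -0.85 and TPS2 at -0.95.

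The remaining named falls were of mixed function. STE23, a protease that trims the a-factor precursor, fell from 137 and 199 FPKM to 48.6 and 47.6 FPKM (-1.76, SE 0.15, adjusted p = 5.38e-05) and was the only fall in the meiosis, sporulation and mating lists. RPL9B, a protein of the large ribosomal subunit, went from 1095 and 1125 FPKM to 428 and 441 FPKM (-1.35). TMA17, an assembly factor of the proteasome, went from 669 and 963 FPKM to 390 and 313 FPKM (-1.20). SPG4, linked in S. cerevisiae to survival in stationary phase, was at 41.8 and 45.4 FPKM in WT and 16.0 and 17.6 FPKM in sir2∆ (-1.33). ATS1, BRE4, HMF1 and FSH1 fell by 1.23, 1.14, 1.05 and 1.05 on the log2 scale, and HMF1 missed the threshold with quantile normalization (-0.99). Another 13 falls have no symbol, including KLLA0F14663g, the gene missing from both sir2∆ libraries. Whether KLLA0F14663g is the deleted gene itself was not established. After it, the largest were KLLA0E05897g, from 101 and 96.0 FPKM to 22.1 and 20.9 FPKM (-2.14), and KLLA0C09218g, from 2324 and 2251 FPKM to 607 and 623 FPKM (-1.89).

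Many falls also varied between the WT libraries. In 17 of the 36, WT replicate 2 was at least 1.2 times WT replicate 1, and the median ratio of these libraries was 1.16 over the falls and 0.998 over all tested genes. In 24 of the 36 the sir4∆ mean lay above both WT libraries, for example at 1545 FPKM for ERG1 and 2523 FPKM for SUR2. The part of this variation in the falls was not tested beyond leaving out libraries. Without WT replicate 2, the falls numbered 32. ATX2 (-0.997), BRE4 (-0.98), ERG25 (-0.91), FRA1 (-0.97), FRD1 (-0.94), POS5 (-0.95) and TMA17 (-0.93) then missed the fold threshold. FRA1 (-0.91) and FRD1 (-0.99) also missed it without sir2∆ replicate 2. In PTR2, LSC2, RPL9B, FIT2, SPG4, HMF1, FSH1, ATO3 and GAL7 the WT libraries differed by less than 1.2 times, and these falls were called with each WT or sir2∆ library left out.

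**Figure D2:**
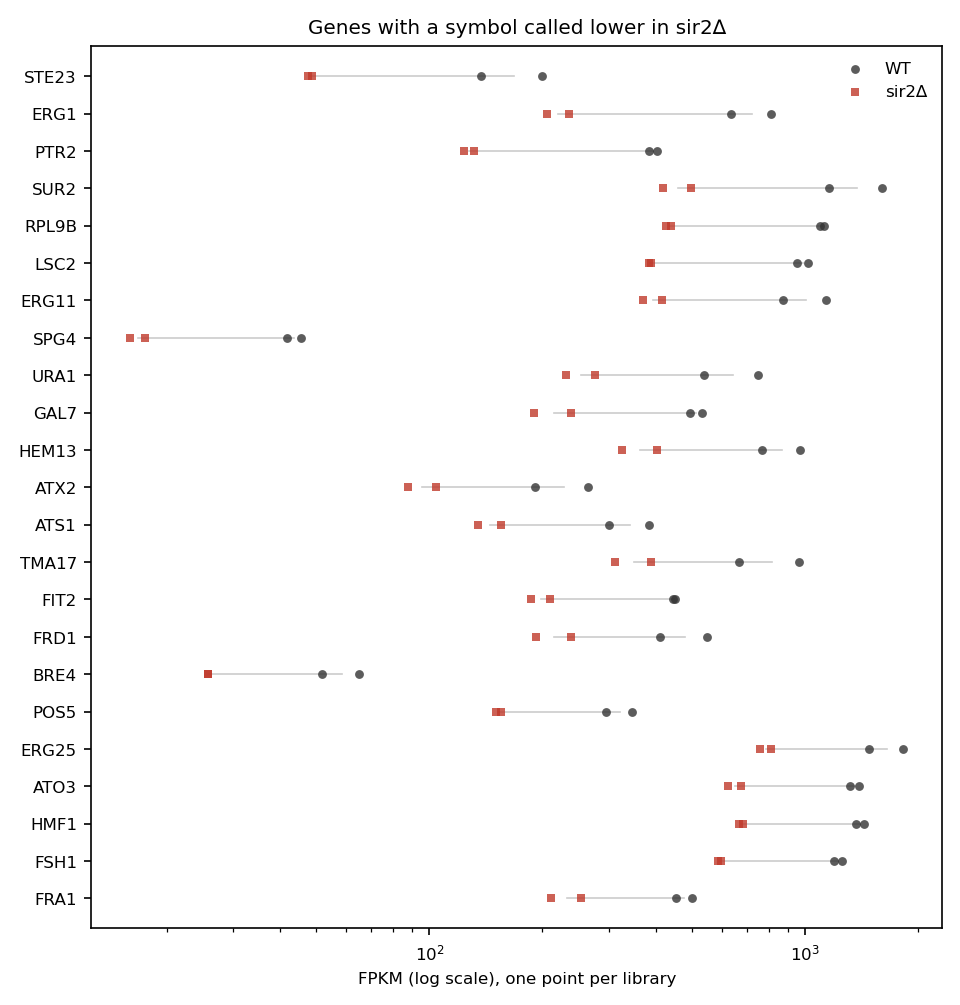
FPKM (log scale) of the 23 genes with a symbol called lower in sir2∆, with 1 point per library (WT as circles, sir2∆ as squares) and a grey line between the group means. The WT libraries lie to the right of the sir2∆ libraries for every gene, and the WT circles are far apart for STE23, SUR2, URA1 and TMA17 but almost on each other for PTR2, RPL9B and FIT2.

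Among the 246 rises, 103 have a symbol and 143 (58.1%) have none, while 21.2% of all tested genes have none. Of the 103, 43 are in the lists for meiosis, sporulation and mating and 60 are not. These 60 covered nicotinic acid, sulfur, fatty acid and propionate metabolism, several transcription factors, DNA repair and mitochondrial translation.

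The nicotinic acid genes had the highest levels among named rises other than CYC7. NPT1, nicotinate phosphoribosyltransferase of the NAD salvage pathway, was at 134 and 140 FPKM in WT and 1125 and 1045 FPKM in sir2∆, a 7.91-fold ratio (log2 fold change 2.97, SE 0.06, adjusted p = 1.02e-08). TNA1, the nicotinic acid permease, was at 225 and 234 FPKM in WT and 961 and 941 FPKM in sir2∆ (2.05). Other steps of NAD synthesis were not called. NMA2, the adenylyltransferase after NPT1, was at -0.21, QNS1, the NAD synthetase, at 0.10, PNC1, the nicotinamidase, at -0.23, and NRK1, the nicotinamide riboside kinase, at 0.42. In thiamine metabolism THI2, an activator of thiamine genes in S. cerevisiae, rose from 6.17 and 7.73 FPKM to 42.3 and 41.2 FPKM (2.43, SE 0.10, adjusted p = 5.09e-07). THI73, a putative transporter, rose from 3.19 and 3.96 FPKM to 12.5 and 13.2 FPKM (1.60, or 0.88 and no call with quantile normalization). THI4, a thiazole synthesis enzyme, was at 0.00, and THI80, the thiamine kinase, was at -0.75 and was not called.

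In sulfate assimilation and methionine synthesis 2 of 32 genes rose (6.25%, against 4.9% of all tested genes) and none fell, while 8 were higher and 12 lower without the fold threshold. MET14, the kinase that phosphorylates adenylyl sulfate, was at 7.89 and 8.51 FPKM in WT and 77.7 and 84.4 FPKM in sir2∆ (3.16, SE 0.11, adjusted p = 2.45e-07). MET28, a regulator of sulfur genes, was at 4.43 and 5.32 FPKM in WT and 18.8 and 20.04 FPKM in sir2∆ (1.80, adjusted p = 6.87e-06). The median of the list was -0.02. The reductase MET16, the next step after MET14, was at 0.76, while MET3, the step before it, was at -0.06 and MET5, a sulfite reductase subunit, was at -0.74. ARR2, an arsenate reductase, rose from 13.9 and 11.5 FPKM to 126 and 114 FPKM (3.15), and ECM4, a glutathione transferase, from 39.0 and 46.6 FPKM to 112 and 99.7 FPKM (1.29). They were the called members of 21 genes of multidrug export and detoxification (9.52%, against 4.9% of all tested genes).

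Enzymes of the methylcitrate cycle, which degrades propionate, rose as neighbours. CIT3, a citrate and methylcitrate synthase, was at 0.431 and 0.217 FPKM in WT and 11.5 and 9.81 FPKM in sir2∆ (3.14, SE 0.15, adjusted p = 1.62e-06). With a WT mean under 1 FPKM, CIT3 passed the filter only through sir2∆ and so had to differ. PDH1, the methylcitrate dehydratase, is the gene next to it and was at 3.11 and 4.10 FPKM in WT and 28.4 FPKM in both sir2∆ libraries (2.68). Since the libraries do not keep the strand, reads that run from a gene into its neighbour cannot be told apart from reads of the neighbour.

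Genes of peroxisomal fatty acid breakdown, the glyoxylate shunt and gluconeogenesis held 8 rises among 50 members (16.0%, against 4.9% of all tested genes) and no fall. Without the fold threshold 22 members were higher and 15 lower. POX1, the acyl-CoA oxidase of the first step of beta-oxidation, was at 7.74 and 8.24 FPKM in WT and 39.6 and 37.3 FPKM in sir2∆ (2.13, SE 0.07, adjusted p = 2.01e-07). ICL1, isocitrate lyase of the glyoxylate shunt, was at 9.37 and 7.35 FPKM in WT and 27.6 and 31.3 FPKM in sir2∆ (1.71). PXA2, part of the transporter that brings fatty acids into peroxisomes, went from 2.14 and 2.65 FPKM to 9.69 and 9.04 FPKM (1.61), and its partner PXA1 was at 0.34. The others were the activators ADR1 (1.27) and SIP4 (1.06), the enzymes ECI1 (1.20) and SPS19 (1.07) for unsaturated fatty acids, and SFC1 (1.08), the carrier that exchanges succinate for fumarate.

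Other steps of these pathways were not called. FOX2 and POT1, later enzymes of beta-oxidation, were at 0.25 and 0.18. MLS1, malate synthase of the glyoxylate shunt, was at 0.88 and missed the fold threshold, and PCK1 and FBP1, enzymes of gluconeogenesis, were at -0.76 and -0.25. The median of the list was 0.13 and turned to -0.02 with quantile normalization. ADR1 lost its call with a pseudocount of 5 (0.96), with quantile normalization (0.84) and with the low-end gap subtracted (0.94), and PXA2 did so with 0.96, 0.50 and 0.92. SFC1 lost its call without WT replicate 2 (0.86) and without sir2∆ replicate 2 (0.98).

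Several regulators were among the rises. RTG1, a transcription factor of the retrograde response from mitochondria to nucleus, was at 13.7 and 14.6 FPKM in WT and 40.3 and 39.5 FPKM in sir2∆ (1.43, SE 0.13, adjusted p = 6.71e-05). RTG1 is the next annotated gene after KLLA0F14663g. It was at 8.71 and 11.9 FPKM in sir4∆ and at 10.9 and 9.34 FPKM in sum1∆, below both sir2∆ libraries. Whether a change at KLLA0F14663g itself bears on RTG1 was not tested. TRS65, the gene on the other side, was at -0.38 and was not called. PHO4, the activator of phosphate genes, went from 24.1 and 22.9 FPKM to 50.6 and 60.7 FPKM (1.20). ROX1, a repressor of hypoxic genes in S. cerevisiae, went from 10.6 and 11.7 FPKM to 27.4 and 26.9 FPKM (1.21), with values of 0.99 to 1.00 and no call under a pseudocount of 5 or with the low-end gap subtracted, and 0.94 with quantile normalization. SFG1, a transcription factor of pseudohyphal growth in S. cerevisiae, rose by 1.37.

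Of 20 phosphate and zinc genes 3 rose, PHO4 among them, and none fell, while 4.9% of all tested genes rose and 0.717% fell. Without the fold threshold 6 of the 20 were higher and 9 lower, and the list median was -0.09. SPL2, which limits low-affinity phosphate uptake in S. cerevisiae, was at 56.5 and 64.6 FPKM in WT and 198 and 275 FPKM in sir2∆ (1.93). The transporters PHO90 and PHO91 were at -0.84 and -0.76 and PHO89 was at 0.13, none of them called. PHO92 is the third, listed by its symbol, but it encodes a reader of methylated adenine in mRNA.

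In DNA repair 4 of 57 genes rose (7.02%, against 4.9% of all tested genes) and none fell, with a median of 0.18 that turned to -0.04 with quantile normalization. MLH2, a mismatch repair protein, was at 7.99 and 8.75 FPKM in WT and 39.3 and 39.6 FPKM in sir2∆ (2.11, SE 0.08, adjusted p = 3.27e-07). RAD59, a recombination protein, was at 14.8 and 11.8 FPKM in WT and 35.7 and 34.9 FPKM in sir2∆ (1.35). RAD30, a polymerase that copies past DNA damage, was at 1.04 and lost its call without WT replicate 2 (0.99), under quantile normalization (0.79) and when the pseudocount was 5 (0.86). SRS2, a DNA helicase, was at 2.33 and 2.21 FPKM in WT and 5.18 and 6.07 FPKM in sir2∆ (1.02). Its direction depended on the scaling, at -0.43 with quantile normalization and -0.30 with the low-end gap subtracted.

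MOH1, linked in S. cerevisiae to stationary phase, was at 15.9 and 19.0 FPKM in WT and 309 and 294 FPKM in sir2∆, a 17.3-fold ratio (4.04, SE 0.10, adjusted p = 2.65e-08). CTS2, similar to chitinases, was at 5.12 and 4.12 FPKM in WT and 68.0 and 69.6 FPKM in sir2∆ (3.64). The chitinase CTS1, by contrast, was at -0.31. Of 49 cell wall and adhesion genes 3 rose (6.12%, against 4.9% of all tested genes) and none fell, while 7 were higher and 23 lower without the fold threshold (median -0.14). EXG1, an exoglucanase of the cell wall, went from 17.1 and 18.2 FPKM to 44.1 and 41.8 FPKM (1.24). RRT12, a subtilisin-like protein of the S. cerevisiae spore wall that was not in the sporulation lists, went from 2.02 and 1.93 FPKM to 20.1 and 16.8 FPKM (2.70). ATH1, the acid trehalase, went from 12.2 and 13.1 FPKM to 36.8 and 36.4 FPKM (1.47). CHA1, the deaminase that degrades serine and threonine, went from 44.8 and 48.0 FPKM to 138 and 141 FPKM (1.57).

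Rises of highly expressed genes were few, with 14 of the 246 at 100 FPKM or more in WT. CYC7, an isoform of cytochrome c, was the single rise above 1000 FPKM in WT, at 5453 and 4779 FPKM there and 10222 and 10297 FPKM in sir2∆ (1.01, SE 0.07, adjusted p = 1.19e-05). Its call was lost without WT replicate 2 (0.91). KLLA0F24464g, which has no symbol, was at 435 and 444 FPKM in WT and 2228 and 2019 FPKM in sir2∆ (2.27). FMP16, a mitochondrial protein of unknown function, was less stable, at 156 and 229 FPKM in WT and 406 and 355 FPKM in sir2∆ (1.00), and it missed the threshold without WT replicate 1 (0.73) and without sir2∆ replicate 1 (0.90).

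The largest rises of all had no symbol. KLLA0F24596g was at 0.779 and 0 FPKM in WT and 206 and 207 FPKM in sir2∆ (7.28, SE 0.22, adjusted p = 9.71e-08). KLLA0C17226g, at 0.249 and 0.115 FPKM in WT, reached 85.5 and 84.2 FPKM (6.18). KLLA0F05379g, at 1.56 and 2.205 FPKM in WT, reached 185 and 189 FPKM (6.04). Next in size were KLLA0A05687g, KLLA0A00132g and KLLA0B08261g, which rose by 5.77, 5.27 and 5.25 on the log2 scale. All of these except KLLA0F05379g averaged under 1 FPKM in WT. They passed the filter only through sir2∆ and so had to differ. In the sir4∆ libraries each of these 6 genes stayed below 2 FPKM. In sum1∆ their means ran from 46.6 FPKM (KLLA0A00132g) to 230 FPKM (KLLA0F05379g), so these high levels were not particular to sir2∆.

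**Figure D3:**
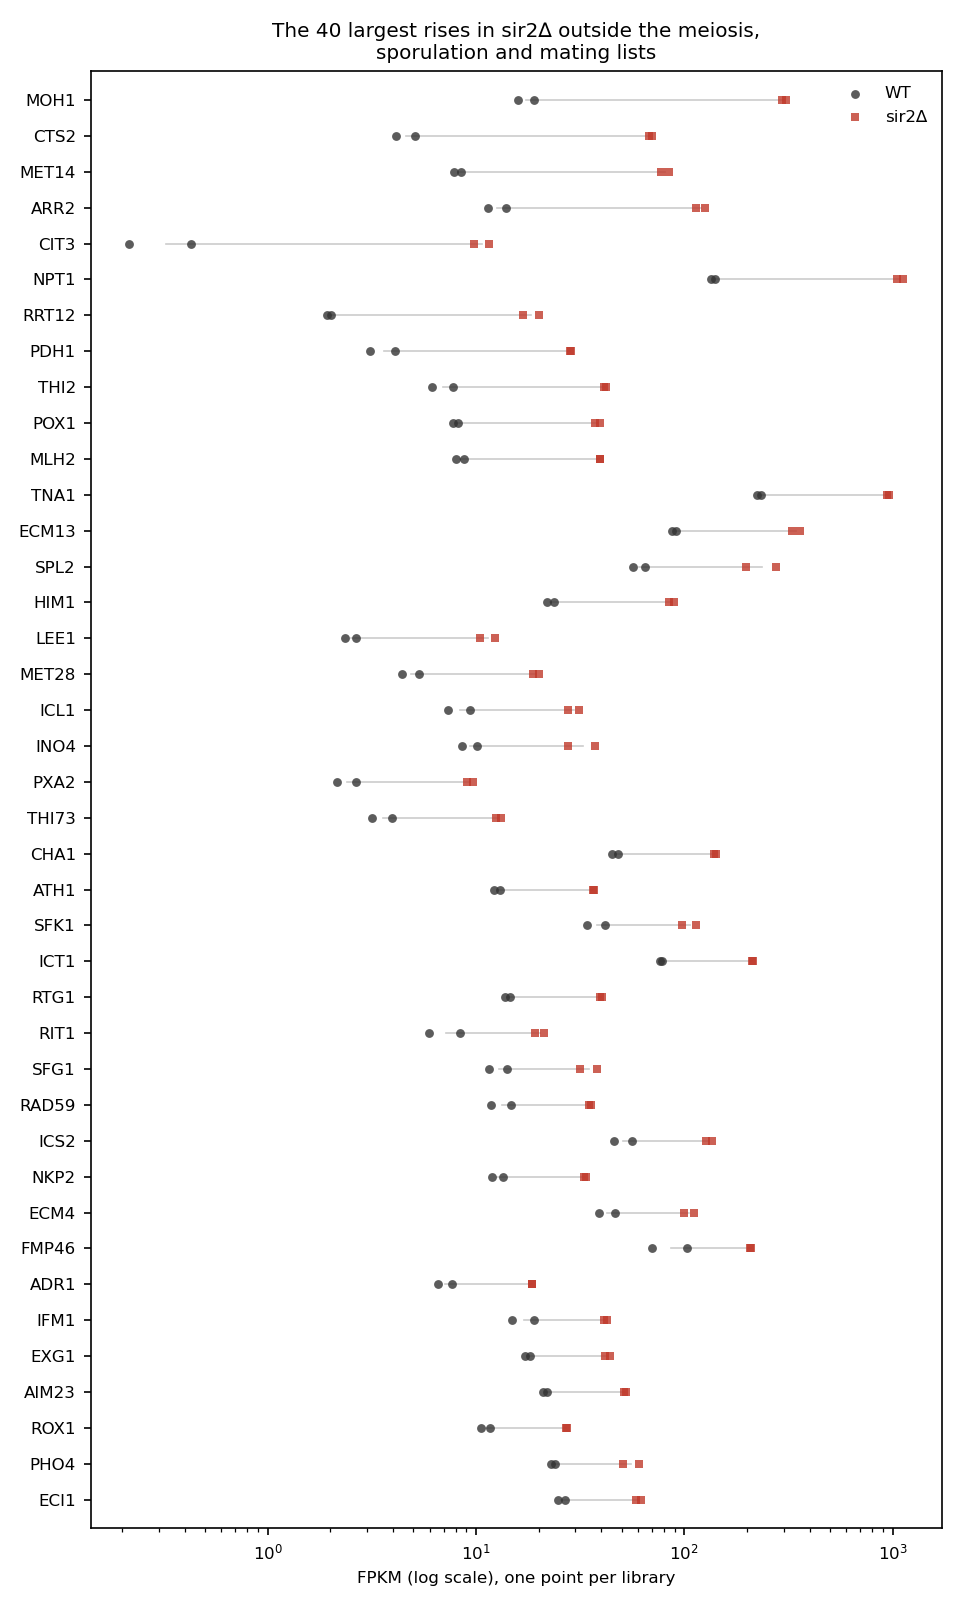
FPKM (log scale) of the 40 largest named rises outside the meiosis, sporulation and mating lists, with 1 point per library (WT as circles, sir2∆ as squares) and a grey line between the group means. NPT1 and TNA1 lie farthest to the right, near 1000 FPKM in sir2∆, while CIT3 starts below 1 FPKM in WT and reaches about 10 FPKM.

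The sporulation and mating genes are summarised here only as far as they frame the rest. Of 40 genes of middle and late sporulation 21 rose (52.5%), of 39 early meiosis genes 13 rose (33.3%), and none of either list fell. Over all tested genes 4.9% rose, and among those between 1 and 10 FPKM in WT 44.4% did, the range that holds the WT medians of both lists (9.36 and 7.49 FPKM). The early meiosis list holds parts of the machinery that methylates and reads adenine in meiotic mRNA. PHO92, the reader, was at 3.07 and 3.57 FPKM in WT and 77.7 and 86.3 FPKM in sir2∆ (4.27), and MUM2, a subunit of the methylating complex, was at 3.68 and 5.20 FPKM in WT and 34.0 and 29.9 FPKM in sir2∆ (2.61). IME4, the methyltransferase, was at 0.82 and missed the fold threshold. Of 9 tested a-specific and alpha-specific genes 3 rose (33.3%, against 4.9% of all tested genes) and none fell. The WT median of this list, 8.85 FPKM, also lies between 1 and 10 FPKM, where 44.4% of tested genes rose. They were AGA2 (5.24), BAR1 (3.68) and ASG7 (1.16). BAR1 averaged under 1 FPKM in WT and so passed the filter only through sir2∆. ASG7 lost its call with quantile normalization (0.48), with a pseudocount of 5 (0.78) and with the low-end gap subtracted (0.61). The heterotrimeric G protein of the pheromone response had unequal values, with the gamma subunit STE18 at 4.49 (SE 0.46), the alpha subunit GPA1 at 1.94 and the beta subunit STE4 at 0.27, which was not called. NDT80, the activator of middle sporulation genes, was at 17.2 and 17.9 FPKM in WT and 55.3 and 49.0 FPKM in sir2∆ (1.52). Whether few cells expressed such genes strongly or many weakly cannot be told apart in RNA from whole cultures.

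Beneath the fold threshold, the genes of the mitochondrial and the cytosolic ribosome moved in opposite directions. Of 69 mitochondrial ribosomal protein genes 68 had a fold change above 0, with a median of 0.58, and 67 were higher without the fold threshold. None was called, and the largest values were 0.94 for RSM19 and 0.93 for MRPL39. MRPL39 passed the threshold without WT replicate 1 (1.08). Of 56 cytosolic ribosomal protein genes 55 had a fold change below 0, with a median of -0.33, and 53 were lower without the fold threshold. RPL30, a protein of the large subunit, was at 5536 and 5532 FPKM in WT and 3480 and 3419 FPKM in sir2∆ (-0.68), and RPL9B was the single called member. By the same measure 28.9% of all tested genes were higher and 29.2% lower. All 275 genes at 1000 FPKM or more in WT had a median of -0.21, and the WT median of the cytosolic list was 4980 FPKM. With quantile normalization the medians of the mitochondrial and cytosolic lists were 0.58 and -0.14.

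Related lists lay between these values. The mitochondrial translation initiation factors IFM1 (1.27) and AIM23 (1.23) were called higher. IFM1 went from 19.0 and 14.8 FPKM to 41.2 and 42.4 FPKM. In the respiratory chain and ATP synthase 27 of 57 genes were higher without the fold threshold and 10 were lower (median 0.10), and the copper chaperone COX17 and the assembly factors COX19 and COX23 were at 0.88, 0.93 and 0.94. Ribosome biogenesis and RNA polymerase I had 70 of 156 genes higher and 9 lower without the fold threshold, with a median of 0.23 and NOP19 (1.03) as the called member. NOP19 lost its call without WT replicate 2 (0.97), without sir2∆ replicate 2 (0.96) and under a pseudocount of 5 (0.91). Silencing and chromatin genes had no called member among 58 and a median of 0.01. SUM1 was the highest of them at 0.95, from 31.2 and 28.0 FPKM in WT to 56.6 and 59.8 FPKM in sir2∆, and passed the threshold without WT replicate 1 (1.03).

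**Figure D4:**
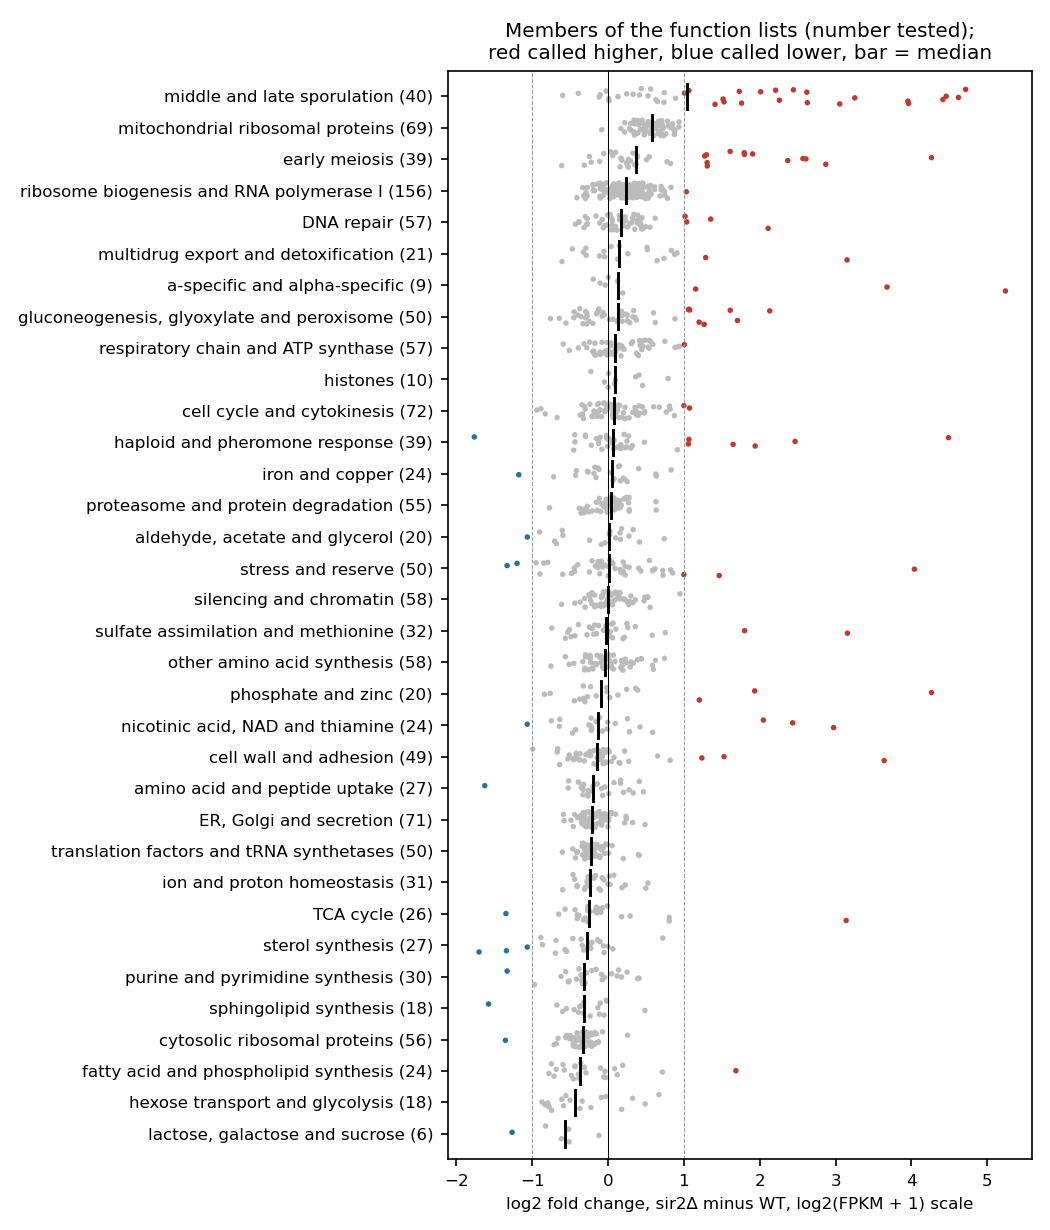
Log2 fold change of sir2∆ against WT for each tested member of 34 function lists, ordered by the list median (black bar), with dashed lines at the fold threshold of 1 in each direction. Called members are red (higher) or blue (lower). The lists at the top are middle and late sporulation and mitochondrial ribosomal proteins. At the bottom are glycolysis, which holds no hexose transporter, and the lactose, galactose and sucrose list, which holds no lactose permease or beta-galactosidase gene.

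To ask which changes are shared with the strains lacking the partner proteins, these strains were compared with WT and directly with sir2∆. In sum1∆ against WT, 206 of the 246 rises were called higher and 25 of the 36 falls lower. NPT1 (2.90), MET14 (3.25) and LSC2 (-2.15) were among them. In sir4∆ against WT, 4 of the rises and 4 of the falls were called higher. These counts reuse the WT libraries of the selection, and the shares over all tested genes were not counted. In the direct test against sum1∆, 87 of all tested genes were higher in sir2∆ (1.73%) and 34 lower (0.677%). Among the 246 rises 18 were higher in sir2∆, 19 were lower and 209 were not called, with a median log2 difference of -0.17. Among the 36 falls 3 were higher in sir2∆ than in sum1∆, 3 were lower and 30 were not called, with a median difference of -0.11. A difference that was not called is not shown to be absent. Since the genes were selected with the sir2∆ libraries, their differences from other strains are not independent of the selection.

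The genes that were higher in sir2∆ than in sum1∆ included metabolic regulators. SFC1 was at 57.7 and 60.2 FPKM in sum1∆, below WT (128.6 and 94.0 FPKM), and at 218 and 250 FPKM in sir2∆ (difference 1.97, SE 0.13, adjusted p = 3.47e-05). ADR1 was at 7.66 and 7.15 FPKM in sum1∆ and 18.5 and 18.6 FPKM in sir2∆ (1.22). ICL1 differed by 1.01, FMP16 by 1.49 and RTG1, the gene next to KLLA0F14663g, by 1.88. TMA17 and SPG4 were lower than WT in both strains, but further so in sum1∆ (1.38 and 1.09). In the other direction, the sporulation genes SPR3 (-2.09), GIP1 (-1.41) and MUM3 (-1.03) and the mating regulator KAR4 (-1.35) were lower in sir2∆ than in sum1∆. FSH1 was at 586 and 598 FPKM in sir2∆ and at 1290 and 1386 FPKM in sum1∆ (-1.17, SE 0.05, adjusted p = 5.89e-06).

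Against sir4∆, 439 of all tested genes were higher in sir2∆ (8.74%) and 162 lower (3.23%). Among the rises 220 of 246 were higher in sir2∆ than in sir4∆, 2 were lower and 24 were not called, with a median difference of 1.99. The 2 lower genes were FMP16 (-1.06) and KLLA0F20900g (-1.05). NPT1 was at 114 and 118 FPKM in sir4∆ (difference 3.22), MOH1 at 14.4 and 16.1 FPKM (4.22) and MET14 at 10.9 and 8.25 FPKM (2.97). MET28 was higher in sir4∆ than in WT, at 11.9 and 10.6 FPKM, and differed from sir2∆ by 0.74. Among the falls 28 of 36 were lower in sir2∆ than in sir4∆, none was higher and 8 were not called, with a median difference of -1.76. ERG1 differed by -2.81, STE23 by -2.58, SUR2 by -2.46 and ERG11 by -2.45, and their sir4∆ levels lay above WT. LSC2, FIT2, ATO3, HMF1, FSH1 and FRA1 were among the 8 falls not called against sir4∆.

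**Figure D5:**
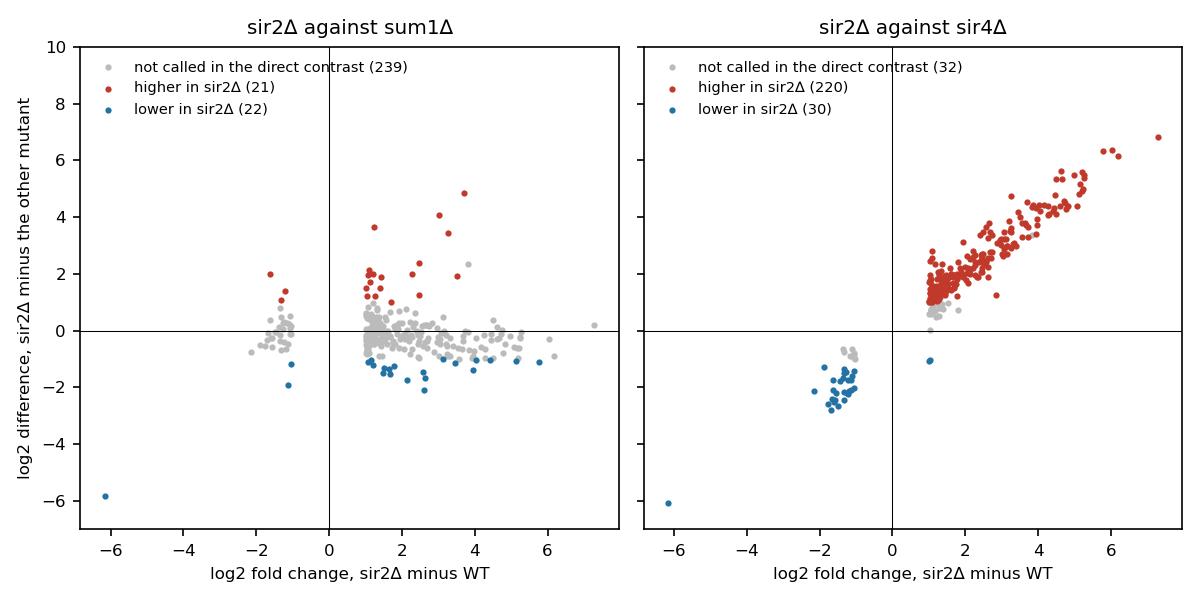
Log2 difference of sir2∆ from sum1∆ (left) or sir4∆ (right) against the log2 fold change of sir2∆ from WT, for the 282 called genes, with 1 point per gene. Against sum1∆ 239 points are grey (not called) and scatter about 0, while against sir4∆ 220 rises are red, 30 genes are blue and 32 are grey.

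Called genes were spread over the chromosomes, with some weight at the ends. Of 84 tested genes among the outermost 10 annotated genes at each of the 12 chromosome ends, 15 rose (17.9%, against 4.9% of all tested genes) and 1 fell, which was URA1. These 15 are 6.1% of the rises. KLLA0A00132g (5.27) and ARR2 (3.15) were among them. Of the 246 rises 49 (19.9%) lay next to another rise, in 23 runs of which the longest held 3 genes. KLLA0F24464g, KLLA0F24486g (5.19) and INO4 formed such a run, and DIT1 and DIT2, the dityrosine enzymes of the spore wall, formed a pair (1.76 and 2.63). No fall lay next to another fall, with 0.717% of all tested genes called lower. The number of adjacent rises or falls expected without clustering was not worked out, so no clustering is claimed.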

How the data were processed

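The authors deposited FPKM values per gene for 8 RNA-seq libraries, 2 each of WT, sir2∆, sir4∆ and sum1∆. TopHat2 2.0.10 and Cuffnorm 2.2.1 are named in the submitters' processing notes, and the genome build is not given in the sources used here, so no coordinates are printed. FPKM from unstranded reads can mix overlapping, antisense or near-identical genes such as ribosomal protein paralogs. The RefSeq gene table of assembly ASM251v1 held every one of the 5076 identifiers as a locus tag and gave the gene order and 3959 symbols. Library depth was inferred from the size of 1 read in low genes (at most 20 reads, coding length over 600 bases). These values came out as whole reads within 0.1 in 100% of 2 to 46 low genes per library. The median-ratio scaling factors of the libraries were 0.999 to 1.001.

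Tests were made on log2(FPKM + 1) for genes averaging 1 FPKM or more across the WT and sir2∆ libraries. This scale understates the change of low genes. limma 3.58.1 in R 4.3.3 was used with an intensity trend and all 8 libraries in the fit (4 residual and 4.02 prior degrees of freedom). Adjusted p-values are Benjamini-Hochberg values over all 5022 genes. Count tests were not used, since the deposited values are FPKM.

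The genes, the 34 function lists (matched by symbol) and the comparisons were chosen with earlier results of these data known. After the values were seen, 2 symbols wrongly placed in the lists were taken out. Lists overlap and are described by counts and medians without a test. The genes named are the called falls with a symbol, the 40 largest named rises outside the meiosis, sporulation and mating lists and the 8 largest within them. Added to these are called members of each list (up to 6 per direction, or the 2 most expressed where none was called), the 6 largest changes without a symbol per direction, and the 6 largest differences per direction from sum1∆ and sir4∆. Other genes were named after their values were seen. Gene functions are those known from S. cerevisiae. Figures were drawn with matplotlib 3.10.9, and other steps used Python 3.11.15, numpy 2.4.6 and pandas 2.3.3.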

Additional observations from a re-analysis of the deposited data

How the results depend on the processing

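The 246 rises and 36 falls numbered 252 and 38 with a pseudocount of 0.1, 197 and 35 with a pseudocount of 5, 236 and 35 with a minimum mean of 5 FPKM, and 246 and 36 without a filter, with median-ratio scaling, with the 4 libraries alone or with depth class as a term. Quantile normalization gave 194 rises and 90 falls, and the share of rises among calls went from 87.2% to 68.3%. Testing against the fold threshold itself (limma treat) left 148 rises and 11 falls, and of the called genes it left 12 in place of 43 that differed from sum1∆ and 152 in place of 250 that differed from sir4∆. Subtracting the low-end gap of 3.93 FPKM, an alternative chosen after seeing the data, gave 198 rises, 101 falls and 85 differences from sum1∆, and rises were 66.2% of calls. The cause was not tested for the quantile result, while treat is stricter by construction. Leaving out each library in turn gave 236 to 256 rises, 32 to 53 falls, 39 to 43 differences from sum1∆ and 231 to 280 from sir4∆. SRS2 turned to -0.43 with quantile normalization and to -0.30 with the low-end gap subtracted, and SPO11 turned to -0.01 (-0.00671) with the latter. Of 125 named genes, 13 lost their call in the same direction with a pseudocount of 5, 15 with quantile normalization, 49 under treat and 11 with the low-end gap subtracted, beside the reversed SRS2 and SPO11. The replicate numbers do not pair the libraries, since deviations of same-numbered WT and sir2∆ libraries correlated at -0.17. With the replicate number as a replicate block 245 genes rose and 36 fell, and the block changed no call of a named gene. Crossing the numbers, also chosen after seeing the data, gave 245 and 36 as well. With 2 libraries per group, values of a few FPKM rest on few reads, and the spread between cultures is not measured.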

Other observations

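Genes of growth and secretion differed by small amounts between sir2∆ and WT. Over all tested genes 28.9% were higher and 29.2% lower without the fold threshold. Of 71 genes of the ER, Golgi and secretion 44 were lower than in WT without the fold threshold and 5 were higher, with a median log2 fold change of -0.21. Among 50 translation factors and tRNA synthetases 32 were lower and 3 higher, with a median of -0.22. EFT1, the elongation factor that moves the ribosome along mRNA, was at 3969 and 3770.1 FPKM in WT and 3209.9 and 3205 FPKM in sir2∆ (-0.27). Proteasome genes were divided, with 13 of 55 higher and 10 lower (median 0.04). None of these lists held a called gene.

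Histone genes had no called member among 10. HTA1, encoding histone H2A, was the highest at 0.79, from 758 and 639 FPKM in WT to 1227 and 1186 FPKM in sir2∆, while HTZ1, encoding the variant H2A.Z, was at -0.23. Cell cycle genes had 21 of 72 members higher and 13 lower by the adjusted p alone, against 28.9% and 29.2% of all tested genes. The called rises were POL1, a subunit of the replicative polymerase alpha (1.07), and SMC3, a cohesin subunit (1.00). Both lost their call without WT replicate 2 (0.93 and 0.85), under quantile normalization (0.82 and 0.66), when the pseudocount was 5 (0.89 and 0.78) and with the low-end gap subtracted (0.86 and 0.70). SMC3 also lost it without sir2∆ replicate 2 (0.95). CLN3 and PCL1, cyclins of the G1 phase, were at -0.83 and -0.88 and were not called.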
